A study of Mus musculus with 10 samples.

Results

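The genes described here are 9 mouse genes of retinoic acid signaling: the receptors Rara, Rarb, Rarg and Rxra, the cellular retinoic acid binding proteins Crabp1 and Crabp2, the retinol transporter Stra6, the retinal reductase Dhrs3 and the retinoic acid hydroxylase Cyp26a1. They were found by gene symbol in the deposited transcript names and make up 9 of the 45706 genes in the tables. RNA was measured in cells on the way from fibroblasts to a pluripotent state, in 5 groups of 2 libraries each. OKSM stands for Oct4, Klf4, Sox2 and Myc, the factors that reprogram somatic cells when expressed together. All groups share a mixed C57BL/6 x 129 background.

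The fibroblast group (MEF) was made of uninduced embryonic fibroblasts with the OKSM cassette at Col1a1 and the M2rtTA transactivator at ROSA26, kept in fibroblast medium without doxycycline and not sorted. The same genotype at days 3, 6 and 9 of induction was grown in stem cell medium with 1 µg/ml doxycycline and 50 µg/ml ascorbic acid. Day 3 cells were taken unsorted, and day 6 and day 9 cells were sorted for the surface marker SSEA1, which appears as cells move toward pluripotency. The embryonic stem cell group (ESC) was the V6.5 line, grown on irradiated feeders in stem cell medium without sorting, and its genotype label names no cassette. Time, the sort, the medium and the line change together between these groups, and the sex-linked RNAs given below differ as well. The shares of these in any difference cannot be told apart. The sort leaves only the cells that carry the marker at days 6 and 9, and the ESC group is a single line grown with feeder fibroblasts. The labels do not say whether the 2 libraries of a group came from separate cultures or animals. The p-values therefore measure only the spread between these libraries.

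Retinol can enter cells through STRA6 and is oxidized through retinal to retinoic acid, and DHRS3 returns retinal to retinol. Retinoic acid binds receptor pairs of a retinoic acid receptor (RAR) and a retinoid X receptor (RXR) on DNA, while CYP26A1 breaks it down. CRABP2 is known to hand retinoic acid to the receptors in the nucleus, and CRABP1 is known to hold it in the cytoplasm. Pluripotent stem cells are known to leave self-renewal when given retinoic acid, and Rarb and Cyp26a1 are textbook target genes of the receptors.

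RAR and RXR pairs bind direct repeats of a 6-base half-site, most often 5 bases apart. Start-site windows from RefSeq (GRCm38.p6, 250 bases before to 50 after each start) were present for 8 of the 9 genes, 18 windows in all. Gene coordinates below are those of GENCODE M21 on the same build, matched by gene ID. Both strands were searched for GTTCA or GGTCA, the last 5 bases of the half-site, followed after 6 unspecified bases by GTTCA or GGTCA again, which leaves 5 bases between half-sites. The same pairs with 3 unspecified bases in between, which leaves 2 bases between half-sites, were searched as well. The windows of Rarb (chr14:16575427-16575726, minus strand) and Cyp26a1 (chr19:37697558-37697857, plus strand) held a repeat with 5 bases between, shown in capitals because these are the 2 classical targets of the receptors.
Rarb: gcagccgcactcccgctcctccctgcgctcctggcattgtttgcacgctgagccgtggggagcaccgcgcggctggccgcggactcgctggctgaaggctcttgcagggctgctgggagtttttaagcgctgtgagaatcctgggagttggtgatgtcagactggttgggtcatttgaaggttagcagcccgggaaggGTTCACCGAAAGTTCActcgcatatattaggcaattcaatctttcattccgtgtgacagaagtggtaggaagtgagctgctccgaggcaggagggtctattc
Cyp26a1: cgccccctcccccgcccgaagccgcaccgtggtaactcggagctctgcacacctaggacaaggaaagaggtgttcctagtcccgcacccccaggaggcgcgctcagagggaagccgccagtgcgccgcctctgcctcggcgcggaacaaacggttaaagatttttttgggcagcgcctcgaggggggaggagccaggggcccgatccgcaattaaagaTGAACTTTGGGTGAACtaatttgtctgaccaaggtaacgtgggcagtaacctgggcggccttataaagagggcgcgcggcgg
The Rarb match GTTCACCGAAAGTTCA lay on the gene's strand from base -52 to base -37 of the RefSeq start (chr14:16575513-16575528). The transcript counted for Rarb in the deposited tables begins further upstream, at base 16575543, so the match lies after the start of that transcript. The Cyp26a1 match TGAACTTTGGGTGAAC lay on the opposite strand from base -32 to base -17 (chr19:37697776-37697791). Of all 32851 windows, 81 (0.247%) held such a repeat with 5 bases between, and 131 (0.399%) held one with 2 bases between, none of the latter in the windows of the genes described here. Among genes with a window in 3 lists used below, 0 of 22 for retinoid uptake, synthesis and breakdown held either repeat. The counts were also 0 of 16 receptor partners and coregulators and 0 of 14 genes known to respond to retinoic acid. A match describes letters and does not show binding.

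Rarg is transcribed from 2 starts, and both windows are shown because the shares of reads on the transcripts that begin there differed between groups. The upstream start lies at chr15:102257473-102257772 and the downstream start at chr15:102246451-102246750, both on the minus strand, and neither window held a match.
Rarg upstream start: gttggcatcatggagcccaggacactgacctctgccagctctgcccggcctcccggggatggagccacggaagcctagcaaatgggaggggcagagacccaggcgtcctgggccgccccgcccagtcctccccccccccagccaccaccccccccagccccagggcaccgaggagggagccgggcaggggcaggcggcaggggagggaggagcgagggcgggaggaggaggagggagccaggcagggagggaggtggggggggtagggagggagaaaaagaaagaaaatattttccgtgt
Rarg downstream start: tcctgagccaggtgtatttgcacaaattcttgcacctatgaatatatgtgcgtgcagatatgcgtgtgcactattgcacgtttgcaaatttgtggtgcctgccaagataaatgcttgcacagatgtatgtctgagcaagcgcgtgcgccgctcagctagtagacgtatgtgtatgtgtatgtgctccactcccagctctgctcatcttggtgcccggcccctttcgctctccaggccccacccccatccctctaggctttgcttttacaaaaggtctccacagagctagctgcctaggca

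Libraries held 29585876 to 38275024 estimated reads. All 9 genes passed the filter on low counts, as did 20165 genes in all. Values are given as CPM, counts scaled to sequencing depth with TMM factors, for the same gene in different groups. TPM, which is also corrected for transcript length, is given where genes are compared. A gene was called when its edgeR quasi-likelihood p-value, adjusted over all 20165 genes with the Benjamini-Hochberg method, was under 0.05 and its absolute log2 fold change was at least 1. With 2 libraries against 2, an exact permutation test of a single gene cannot go below 0.333. The summed level of 10 fibroblast markers ran from 48887 to 50344 CPM in MEF, 4126 to 4145 at day 3, 234 to 248 at day 6, 103 to 109 at day 9 and 4355 to 4503 in ESC. All 10 markers were at 1 CPM or more in MEF and at day 3, 7 at days 6 and 9 and 9 in ESC, and Lum was at 0 at day 9. Summed over 8 pluripotency markers, levels were 1.99 to 2.41 CPM in MEF, 3.09 to 4.64 at day 3, 124 to 127 at day 6, 347 to 349 at day 9 and 3887 to 3972 in ESC. The female-specific RNA Xist averaged 0.765 CPM in MEF, 1009 to 1303 CPM in the induced groups and 10.2 CPM in ESC. Y-linked Ddx3y averaged 88.5 CPM in MEF, 0.0712 to 0.164 CPM in the induced groups and 26.5 CPM in ESC. MEF libraries thus carried the male pattern and induced libraries the female one. The comparisons of MEF with induced groups and of day 9 with ESC therefore also differ in sex-linked genes. The part of the fibroblast markers and of the sex-linked difference in the results below was not tested.

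The 9 genes moved at different steps and in both directions. Between MEF and day 3, 1 gene rose (Dhrs3) and 5 fell (Rara, Rarb, Crabp1, Crabp2 and Stra6), beside 29.1% of all tested genes called in either direction (14.6% higher and 14.5% lower). Their median log2 fold change was -1.33, beside 0.08 over all tested genes. Between day 3 and day 6, Crabp1 and Cyp26a1 rose and Rarb fell, beside a background of 19.5% (9.26% higher and 10.2% lower). Between day 6 and day 9, Crabp2 and Cyp26a1 rose and 0 fell, beside 7.87% (5.18% higher and 2.68% lower). For that count of 0 by edgeR, DESeq2 also gave 0, and 3 of the 9 genes were lower at an unadjusted p under 0.05. Between day 9 and ESC, Rara, Rarb and Stra6 rose and Crabp1, Crabp2 and Dhrs3 fell, beside 32.9% (18.6% higher and 14.3% lower).

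**Figure D1:**
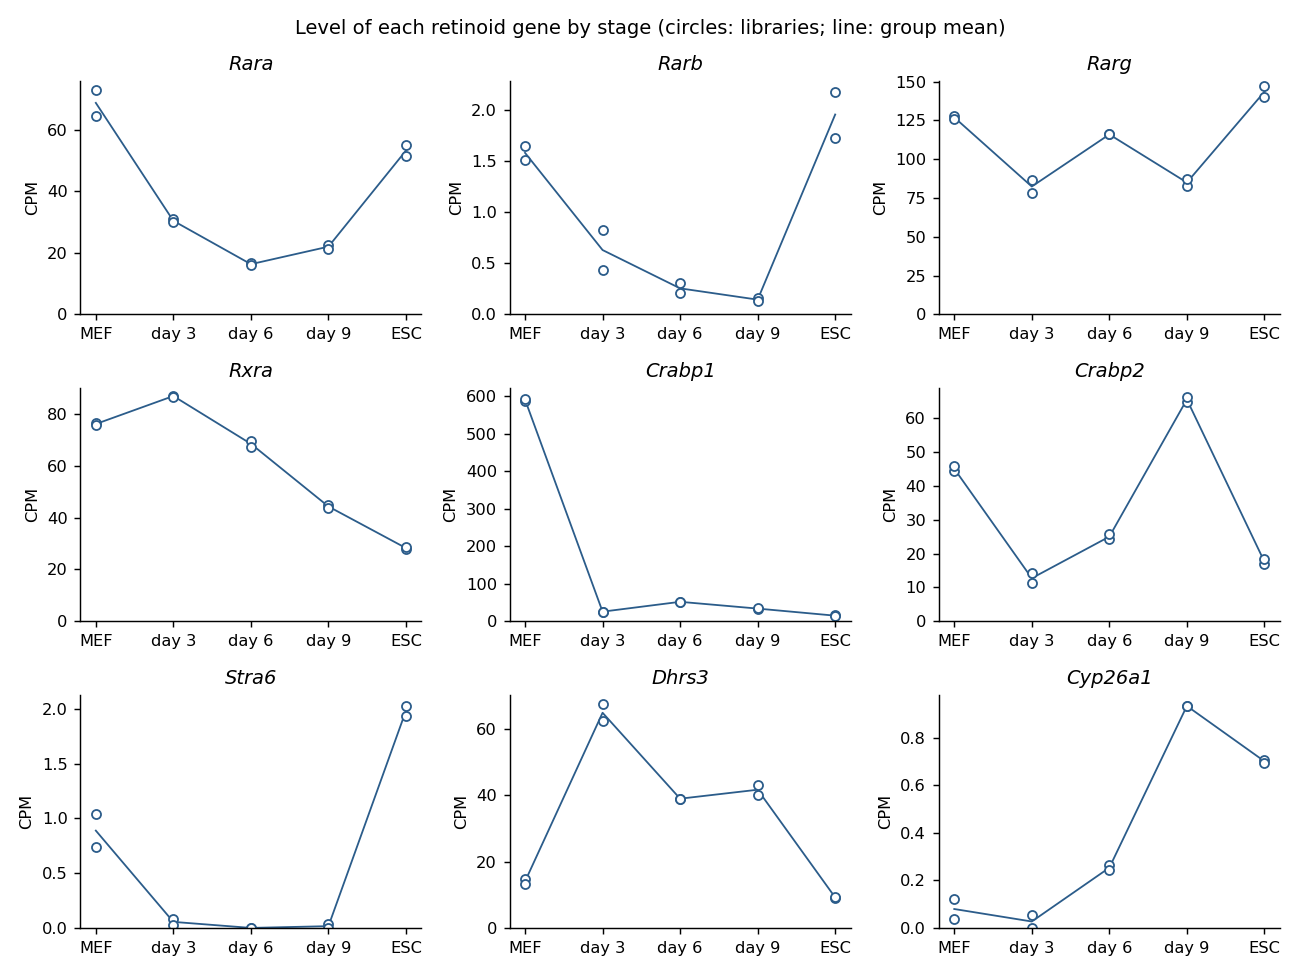
CPM (linear axes from 0, a scale for each gene) of the 9 genes in each library, with a line through the group means. Crabp1 drops from a mean of 590 CPM in MEF to 25.2 at day 3, Rara and Rarb have their lowest means at day 6 or day 9, Crabp2 and Cyp26a1 have their highest at day 9, and Dhrs3 its highest at day 3.

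**Figure D2:**
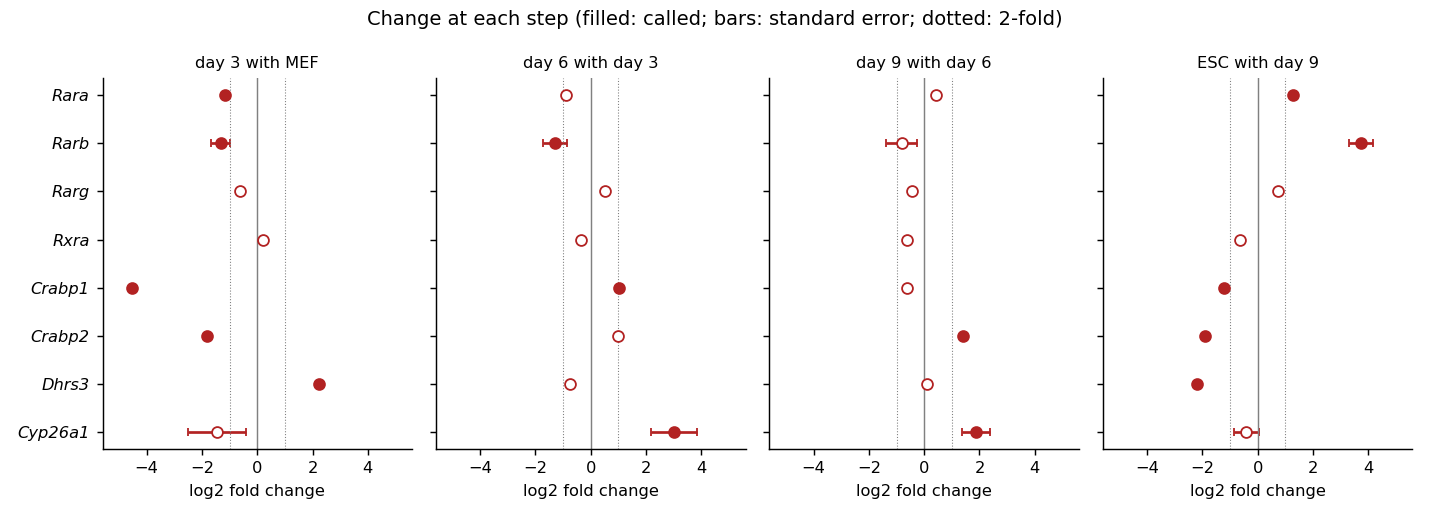
Log2 fold change of 8 genes at each of the 4 steps (bars are standard errors, filled circles are called genes, dotted lines mark 2-fold). Stra6 is left out because it had 0 to 3 reads per library at days 3, 6 and 9; Rarg and Rxra have open circles at all 4 steps.

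Rara (ENSMUSG00000037992.14, chr11:98927818-98974942, plus strand), the receptor found in most tissues, fell at day 3 and stayed low until ESC. It was at 73.0 and 64.5 CPM in the MEF libraries, 30.9 and 29.9 at day 3, 16.7 and 15.9 at day 6, 22.7 and 21.3 at day 9, and 51.6 and 54.9 in ESC. No 2 groups overlapped. Against MEF, the day 3 log2 fold change was -1.18 (SE 0.06, adjusted p = 5.9e-10). The log2 fold change was -0.97, under the fold threshold, when libraries were scaled to their totals. The further difference at day 6 (log2 fold change -0.90) was under 2-fold, and it was -0.23 (adjusted p = 0.22) with an offset for transcript length. The log2 fold change of day 9 against MEF was -1.65 (SE 0.07, adjusted p = 1.1e-11). Rara rose in ESC against day 9 by a log2 fold change of 1.28 (SE 0.07, adjusted p = 3.9e-10), or 0.85 with the length offset. The ESC mean was 77.5% of the MEF mean in CPM. The log2 fold change of ESC against MEF was -0.99 with the length offset (adjusted p = 1.3e-04) and -0.03 when libraries were scaled to their totals. The size of this difference thus depended on the setting. The length offset weights transcripts by TPM, so the short transcript Rara-006, described below, weighs heavily in it. Over protein-coding transcripts only, an alternative chosen after seeing the data, Rara averaged 12.3 TPM in MEF, 5.55 at day 3 and 2.91 at day 6. Its means were 3.69 TPM at day 9 and 10.2 in ESC.

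Rarb (ENSMUSG00000017491.8, chr14:16430839-16819156, minus strand), the receptor that retinoic acid itself induces in many cells, was the scarcest of the receptors described here and fell at 2 steps. MEF libraries held 41 and 54 reads, day 3 libraries 16 and 28, day 6 libraries 7 and 10, day 9 libraries 5 and 5, and ESC libraries 74 and 65. The ESC mean of 1.96 ± 0.314 CPM (SD, n = 2) was the highest, followed by 1.58 ± 0.0931 in MEF, 0.629 ± 0.281 at day 3, 0.254 ± 0.0683 at day 6 and 0.143 ± 0.0243 at day 9. No neighbours in that order overlapped. The fold changes were -1.33 on the log2 scale at day 3 (SE 0.36, adjusted p = 0.0051) and -1.29 between day 3 and day 6 (SE 0.44, adjusted p = 0.023). Both calls depended on single libraries: without day 3 replicate 1 the first was -0.93 (adjusted p = 0.064), and without day 3 replicate 2 the second was -0.77 (adjusted p = 0.24). Without day 6 replicate 1 the second had an adjusted p of 0.14, and with DESeq2 of 0.069. From MEF to day 9 as a whole, the log2 fold change was -3.45 (SE 0.45, adjusted p = 7.2e-06). ESC exceeded day 9 by a log2 fold change of 3.75 (SE 0.44, adjusted p = 3.3e-06), and ESC and MEF did not differ past the thresholds (0.31, SE 0.33, adjusted p = 0.42).

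Rarg (ENSMUSG00000001288.12, chr15:102234938-102257517, minus strand), the receptor of skin and cartilage precursors that is also found in stem cells, was called in 0 of the 10 contrasts between groups. It was at 128 and 126 CPM in MEF, 86.4 and 78.4 at day 3, 116 and 116 at day 6, 82.9 and 87.1 at day 9, and 140 and 147 in ESC. The day 3 and day 9 libraries overlapped and the other groups did not. Small adjusted p-values came with folds under 2, such as -0.62 on the log2 scale at day 3 (adjusted p = 2.4e-08) and 0.75 in ESC against day 9 (adjusted p = 2.5e-09).

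In TPM, Rarg took a larger share of the RAR messages after MEF. Rarg made up 48.3% ± 1.53 (SD, n = 2) of the summed TPM of Rara, Rarb and Rarg in MEF, 68.1% ± 1.96 at day 3, 78.9% ± 0.205 at day 6 and 73.5% ± 2.96 at day 9, with 68.3% ± 0.794 in ESC. These shares depend on a short Rara transcript: Rara-006 (307 nt, labelled a processed transcript in the tables) held 2.5% and 2.4% of the Rara reads in the MEF libraries, but gave 14.3 and 11.8 TPM there. With protein-coding transcripts only, an alternative chosen after seeing the data, Rarg made up 64.9% ± 0.780 in MEF, 73.4% ± 1.52 at day 3, 88.2% ± 0.276 at day 6 and 79.8% ± 1.36 at day 9, with 72.5% ± 0.315 in ESC. The order of the groups was kept except for day 3 and ESC, which lay close together in both. Rara was then at 12.3 TPM in MEF beside 23.2 for Rarg. Rarb was at most 0.893% of the sum in any library, or 1.02% over protein-coding transcripts. The summed TPM of the 3 receptors was 49.4 ± 4.40 in MEF, 25.4 ± 2.74 at day 3, 33.0 ± 0.651 at day 6 and 25.1 ± 1.65 at day 9, with 43.4 ± 0.793 in ESC. Over protein-coding transcripts it was 35.7 ± 2.77 in MEF and 38.2 ± 0.813 in ESC, so the order of these 2 groups turned. The shares of the 3 receptors are descriptions without a test.

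Rxra (ENSMUSG00000015846.12, chr2:27676440-27762957, plus strand), a partner that RARs share with many other nuclear receptors, was highest at day 3 and lowest in ESC. Its libraries were at 76.3 and 75.9 CPM in MEF, 87.1 and 86.7 at day 3, 69.7 and 67.2 at day 6, 44.7 and 43.8 at day 9, and 27.8 and 28.6 in ESC. No groups overlapped, and none of the 4 successive steps reached 2-fold. The difference built up over the steps: ESC was below MEF by a log2 fold change of -1.43 (SE 0.04, adjusted p = 4.3e-13) and below day 3 by -1.62 (SE 0.04, adjusted p = 1.1e-13). As a share of the summed TPM of Rxra, Rxrb and Rxrg, Rxra was at 38.9% ± 1.04 in MEF (SD, n = 2), 34.3% at day 3, 30.6% at day 6 and 24.0% at day 9, with 20.4% ± 1.88 in ESC, a description without a test. Over protein-coding transcripts only, its share was 42.0%, 40.9%, 37.9%, 30.5% and 23.3% in the same groups. Rxrb, the form of RXR expressed in most cells, stayed at group means of 48.6 to 60.5 CPM.

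Crabp1 (ENSMUSG00000032291.8, chr9:54764748-54773110, plus strand) was far lower in all later groups than in MEF. It was at 588 and 593 CPM in MEF, 25.6 and 24.8 at day 3, 50.8 and 52.1 at day 6, 32.2 and 34.6 at day 9, and 15.0 and 14.0 in ESC. The MEF libraries stood far above all others, and the later groups did not overlap among themselves. The fall at day 3 was 23.4-fold (log2 fold change -4.55, SE 0.04, adjusted p = 6.8e-18). The rise between day 3 and day 6 sat at the threshold (1.03, SE 0.05, adjusted p = 1.7e-10): it was 0.99 without day 3 replicate 2 and 0.99 when only these 2 groups were fitted. ESC lay below day 9 (-1.21, SE 0.05, adjusted p = 7.1e-11), and the ESC mean was 2.46% of the MEF mean. The summed fibroblast markers of ESC were at 8.93% of their MEF level, and single markers at 1.11% to 14.0%. In such bulk samples, fewer cells of a type and less RNA per cell cannot be told apart.

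Crabp2 (ENSMUSG00000004885.5, chr3:87948666-87953376, plus strand) fell with Crabp1 at day 3 and parted from it after day 6. Both genes were higher at day 6 than at day 3. Between day 6 and day 9 the log2 fold change of Crabp1 was -0.62, while Crabp2 rose. Crabp2 libraries were at 44.3 and 45.9 CPM in MEF, 14.1 and 11.3 at day 3, 24.2 and 25.8 at day 6, 64.9 and 66.3 at day 9, and 16.9 and 18.3 in ESC. Day 9 was the highest group, day 3 the lowest, and no groups overlapped. At day 3 the log2 fold change was -1.82 (SE 0.08, adjusted p = 5.2e-11). The difference between day 3 and day 6 was just under the fold threshold (0.97, SE 0.08, adjusted p = 1.7e-07). It passed with scaling to library totals (1.04) and without day 3 replicate 1 (1.13) or day 6 replicate 1 (1.01). Crabp2 rose between day 6 and day 9 by 1.39 (SE 0.07, adjusted p = 2.2e-09), and was higher at day 9 than at day 3 by 2.36 (SE 0.08, adjusted p = 2.2e-12). It fell between day 9 and ESC, with a log2 fold change of -1.90 (SE 0.07, adjusted p = 1.4e-11).

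The order of the 2 binding proteins turned over in TPM. In MEF, Crabp1 was at 492 and 486 TPM and Crabp2 at 30.1 and 30.5. At day 9, Crabp1 was at 25.5 and 27.2 TPM and Crabp2 at 41.8 and 42.2. The ratio of Crabp2 to Crabp1 TPM was 0.0620 ± 0.0012 in MEF (SD, n = 2), 0.410 ± 0.0541 at day 3, 0.395 ± 0.0122 at day 6 and 1.60 ± 0.0600 at day 9, with 0.990 ± 0.0985 in ESC. Crabp1 was the more abundant message in MEF and at days 3 and 6, Crabp2 was so in both day 9 libraries, and the ESC libraries lay on either side of equality (0.921 and 1.06). The summed TPM of both was 523 and 516 in the MEF libraries and lay between 25.1 and 69.3 in the 8 later ones.

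**Figure D3:**
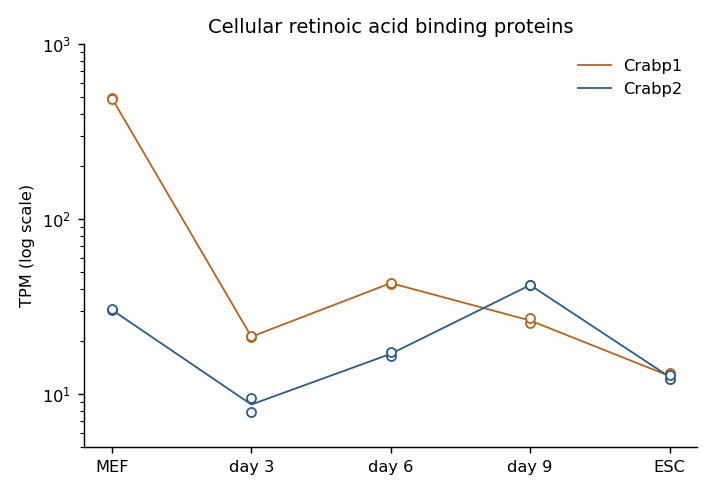
TPM on a log axis of Crabp1 and Crabp2 in each library, with lines through group means. The lines cross between day 6 and day 9, where the mean ratio of Crabp2 to Crabp1 goes from 0.395 to 1.60, and meet in ESC at 0.990.

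Stra6 (ENSMUSG00000032327.12, chr9:58063788-58153996, plus strand), the membrane receptor that takes retinol from its plasma carrier, was nearly silent in the induced groups. It had 20 and 34 reads in MEF, 3 and 1 at day 3, 0 and 0 at day 6, 1 and 0 at day 9, and 66 and 76 in ESC. The MEF and ESC libraries all lay above the induced ones. Stra6 fell at day 3 (adjusted p = 7.6e-05), where MEF was 16.0 times as high by summed reads (95% exact counting interval 5.90 to 60.8). The log2 fold change there was -3.90, and -4.75 without day 3 replicate 1. MEF was at least 9.92-fold higher than day 6 and ESC at least 22.2-fold higher, against a floor of 3 reads per library (0.0894 CPM). Stra6 rose between day 9 and ESC (adjusted p = 1.4e-06). The ESC mean was above the MEF mean (1.15 on the log2 scale, SE 0.39, adjusted p = 0.017), but the call was lost with DESeq2 (adjusted p = 0.13) and with a length offset (0.16). It was also lost without MEF replicate 1 (0.12), ESC replicate 1 (0.068) or ESC replicate 2 (0.095). Counting intervals here cover counting error only.

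Dhrs3 (ENSMUSG00000066026.12, chr4:144892827-144928209, plus strand) lowers retinoic acid supply by turning retinal back into retinol and is itself known as a retinoic acid target. It was the only one of the 9 genes called higher at day 3 than in MEF. It was at 14.8 and 13.2 CPM in MEF, 67.4 and 62.3 at day 3, 38.9 and 39.0 at day 6, 43.1 and 40.2 at day 9, and 9.16 and 9.21 in ESC. The 3 induced groups lay above MEF and ESC without overlap. The rise at day 3 was 4.65-fold (log2 fold change 2.22, SE 0.07, adjusted p = 7.9e-13), and day 9 was still 1.58 above MEF on the log2 scale (SE 0.07, adjusted p = 2.7e-11). Day 6 and day 9 did not differ past the thresholds (0.10, SE 0.06, adjusted p = 0.24). In ESC against day 9, Dhrs3 fell by 2.18 on the log2 scale (SE 0.07, adjusted p = 2.1e-12), and the ESC mean was 65.6% of the MEF mean.

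Cyp26a1 (ENSMUSG00000024987.5, chr19:37697798-37701536, plus strand) was highest at day 9, at low read numbers. It had 1 and 4 reads in MEF, 2 and 0 at day 3, 9 and 8 at day 6, 29 and 37 at day 9, and 24 and 26 in ESC. The MEF and day 3 libraries overlapped, and the day 6, day 9 and ESC libraries lay above both. Against MEF, however, day 6 was not called (log2 fold change 1.57, SE 0.72, adjusted p = 0.063). Cyp26a1 rose between day 3 and day 6 (adjusted p = 0.007), with day 6 at 8.99 times the day 3 level by summed reads (95% exact counting interval 2.13 to 80.3). The log2 fold change was 3.02, and without day 3 replicate 1, which held all of the day 3 reads, 6.11 (adjusted p = 0.0052). Without day 3 replicate 2 it was 2.15 (adjusted p = 0.057). The rise between day 6 and day 9 was 1.87 on the log2 scale (SE 0.50, adjusted p = 0.01), and it passed neither with DESeq2 (0.066) nor without day 6 replicate 1 (0.061), day 6 replicate 2 (0.071) or day 9 replicate 2 (0.053). Over the whole course, day 9 was 11.2 times the MEF level by summed reads (interval 4.56 to 35.6, adjusted p = 1.6e-04). ESC and day 9 did not differ past the thresholds (-0.41, SE 0.45, adjusted p = 0.43). In TPM, Cyp26a1 stayed at or below 0.268 in every library.

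Against MEF, the end points differed as follows. At day 9, 2 of the 9 genes were higher (Cyp26a1 and Dhrs3) and 4 lower (Rara, Rarb, Crabp1 and Stra6), beside 43.9% of all tested genes called (24.1% higher and 19.8% lower). In ESC, 2 were higher (Cyp26a1 and Stra6) and 3 lower (Rxra, Crabp1 and Crabp2), beside 46.1% (25.5% higher and 20.6% lower). Both comparisons share the MEF libraries. The median log2 fold change of the 9 genes was -0.78 at day 9 and -0.37 in ESC, beside 0.19 and 0.10 over all tested genes.

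The shares of reads on Rarg transcripts differed between groups while the gene total did not reach 2-fold. The transcript Rarg-001 begins inside the upstream window printed above (base 102257517), and Rarg-002 inside the downstream one (base 102246500); the 2 starts are known to give receptors with different N termini. Rarg-001 held 56.3% and 60.1% of the gene's reads in the MEF libraries, 28.2% and 34.4% at day 3, 24.7% and 23.7% at day 6, 23.7% and 24.1% at day 9, and 13.8% and 15.7% in ESC. Rarg-002 held 41.5% and 39.3% in MEF, 69.1% and 64.1% at day 3, 72.6% and 74.0% at day 6, 75.1% and 74.8% at day 9, and 85.8% and 84.0% in ESC. Both MEF libraries had more reads on the upstream transcript, and all 8 later libraries had more on the downstream one. In CPM, Rarg-001 went from a mean of 73.9 ± 2.24 in MEF to 25.7 ± 1.79 at day 3, and Rarg-002 from 51.3 ± 2.79 in MEF to 122 ± 1.90 in ESC (SD, n = 2). No test was made on transcripts, since single reads of 50 nt leave their assignment uncertain.

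Rara transcripts were less settled. Rara-004, which begins furthest downstream (base 98960412), held 26.4% and 32.2% of the reads in MEF, 49.3% and 41.8% at day 3, 26.8% and 26.8% at day 6, 9.2% and 13.5% at day 9, and 51.9% and 48.6% in ESC. Rara-201 held 40.3% and 45.4% at day 9 but 0.1% and 0.0% in ESC. The day 3 libraries disagreed on Rara-003, at 26.5% and 0.0%, which shows how far the estimates can differ between libraries of a group. Rarb, Crabp1 and Cyp26a1 had 1 transcript each in the tables.

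**Figure D4:**
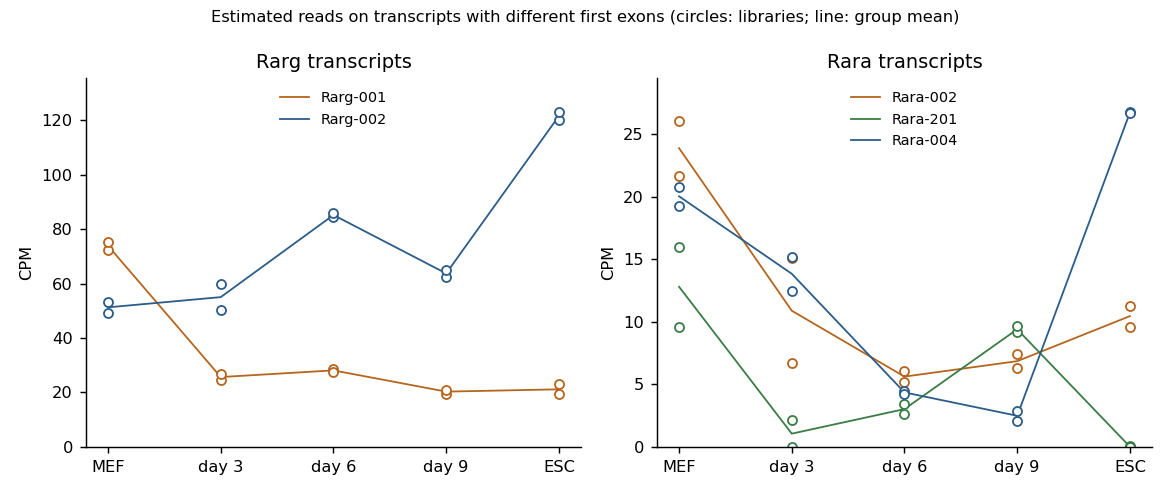
CPM of the main Rarg transcripts (left) and of 3 Rara transcripts (right) in each library, with lines through group means. Rarg-001 falls from 73.9 CPM in MEF to 25.7 at day 3 while Rarg-002 reaches 122 in ESC; the right panel shows Rara-004 at 2.49 CPM at day 9 and 26.8 in ESC.

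Other genes of the pathway were counted in 3 lists. Of 28 genes for retinoid uptake, synthesis and breakdown, 22 were tested. At day 3 against MEF 3 rose and 9 fell, beside 14.6% of all tested genes higher and 14.5% lower. At day 6 against day 3 1 rose and 8 fell (9.26% and 10.2%), at day 9 against day 6 1 rose and 2 fell (5.18% and 2.68%), and in ESC against day 9 3 rose and 6 fell (18.6% and 14.3%). Their median log2 fold changes at these steps were -0.56, -0.80, 0.16 and -0.18, beside 0.08, 0.03, 0.00 and 0.00 over all tested genes. At day 9 against MEF 2 rose and 13 fell (24.1% and 19.8% of all tested genes), and in ESC against MEF 2 rose and 14 fell (25.5% and 20.6%).

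Aldh1a2 and Aldh1a3, which make retinoic acid from retinal, were high in MEF and low in the induced groups. Aldh1a2 averaged 9.65 CPM in MEF and was at 0.296 and 0.325 at day 3 and 0 in both day 9 libraries, so that MEF was at least 112-fold higher than day 9. Its ESC libraries were at 2.56 and 3.15 CPM. Aldh1a3 averaged 28.6 CPM in MEF, 3.56 at day 9 and 22.5 in ESC, a rise of 2.66 on the log2 scale between the last 2 (SE 0.10, adjusted p = 1.8e-11). Aldh1a1, an enzyme of the same family, took another course. It averaged 16.4 CPM in MEF, 10.8 at day 3, 18.0 at day 6 and 23.2 at day 9, its highest mean. In ESC it was at 0.303 CPM (log2 fold change against day 9 -6.22, SE 0.16, adjusted p = 1.4e-13).

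Cyp26b1, another retinoic acid hydroxylase, was highest in MEF. It averaged 44.1 CPM in MEF, 7.76 at day 3, 2.96 at day 6 and 1.28 at day 9, with 1.76 in ESC. Between day 3 and day 6 it fell by 1.39 on the log2 scale (SE 0.16, adjusted p = 4.3e-06). Dhrs4, a retinal reductase like Dhrs3, rose at day 3 (1.20, SE 0.04, adjusted p = 8.1e-12) and at day 6 (1.32, SE 0.04, adjusted p = 9.7e-13). Its libraries were at 26.2 and 26.9 CPM in MEF, 62.5 and 59.8 at day 3, 152 and 154 at day 6, 187 and 189 at day 9, and 14.1 and 14.9 in ESC. Dhrs4 and Dhrs3 were thus both higher in all induced libraries than in MEF or ESC. Adh7, which oxidizes retinol, fell between day 3 and day 6 from 38.9 to 5.28 CPM, and Dhrs9 fell at day 3 from 6.33 to 0.137 CPM.

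Of 20 receptor partners and coregulators, all were tested. At day 3 against MEF 0 rose and 0 fell by edgeR and by DESeq2, while 9 were higher and 6 lower at an unadjusted p under 0.05, and 29.1% of all tested genes were called. At day 6 against day 3 1 rose and 1 fell (19.5% of all tested genes called), at day 9 against day 6 1 fell and 0 rose (DESeq2 also 0, with 5 higher at an unadjusted p under 0.05) beside 7.87%, and in ESC against day 9 3 rose and 2 fell beside 32.9%. At day 9 against MEF 1 rose and 3 fell (43.9% of all tested genes called), and in ESC against MEF 3 rose and 4 fell (46.1%). Median log2 fold changes at the 4 steps were 0.00, -0.05, -0.09 and -0.15, beside 0.08, 0.03, 0.00 and 0.00 over all tested genes. Ncoa3, a coactivator of nuclear receptors, rose from 42.3 CPM at day 9 to 163 in ESC. Nr6a1, an orphan receptor of early embryos and germ cells, rose from 5.74 to 46.9 CPM there (log2 fold change 3.03, SE 0.08, adjusted p = 3.0e-13). Nr2f1 and Nr2f2, orphan receptors that bind the same repeats as RARs, fell: Nr2f1 from 8.50 CPM at day 3 to 3.31 at day 6, and Nr2f2 from 16.0 CPM at day 9 to 4.34 in ESC. Nr2c1 went from 26.1 to 10.7 CPM between day 9 and ESC, and the coactivator Ncoa1 from 21.1 CPM in MEF to 8.55 at day 9.

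Of 27 genes known to respond to retinoic acid in other systems, 25 were tested. At day 3 against MEF 8 rose and 3 fell, beside 14.6% of all tested genes higher and 14.5% lower. At day 6 against day 3 1 rose and 9 fell (9.26% and 10.2%), at day 9 against day 6 0 rose and 3 fell (5.18% and 2.68%), and in ESC against day 9 7 rose and 6 fell (18.6% and 14.3%). For the count of 0, DESeq2 gave 0 and 1 gene was higher at an unadjusted p under 0.05. Median log2 fold changes were 0.33, -0.83, -0.56 and -0.26 at these steps, beside 0.08, 0.03, 0.00 and 0.00 over all tested genes. With genes at 0 in a group placed at their bound, the first 2 medians were 0.28 and -0.52 and the other two were as before. At day 9 against MEF 3 rose and 10 fell (24.1% and 19.8% of all tested genes), and in ESC against MEF 4 rose and 13 fell (25.5% and 20.6%).

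Tgm2, a transglutaminase, was at 33.3 and 31.2 CPM in MEF, 199 and 206 at day 3, 329 and 326 at day 6, 188 and 181 at day 9, and 36.9 and 38.3 in ESC, and like Dhrs3 was higher in the induced libraries than in MEF and ESC. Rec8, a meiotic cohesin, averaged 0.132 CPM in MEF, 5.22 at day 3, 12.0 at day 6 and 15.8 at day 9, rising by 5.26 on the log2 scale at day 3 (SE 0.30, adjusted p = 1.2e-09). Stra8, needed to enter meiosis and named for its response to retinoic acid, was at 0.0964 CPM or less in every library up to day 9 and at 33.2 and 37.4 CPM in ESC. Zfp703 and Zfp503, transcriptional repressors, both fell at day 3 and again at day 6, and Zfp503 fell further at day 9. Zfp703 went from 49.3 CPM in MEF to 9.10 at day 3 and 0.748 at day 6. Zfp503 went from 113 CPM in MEF to 45.8, 6.03 and 1.36 CPM at days 3, 6 and 9. Both were higher in ESC than at day 9. Zfp703 went from 0.949 to 8.58 CPM (log2 fold change 3.23, adjusted p = 3.3e-09) and Zfp503 from 1.36 to 11.9 (3.14, adjusted p = 1.6e-11). In that comparison 9 of 10 fibroblast markers were also higher, and the ESC group was grown with feeder fibroblasts. The part of feeder cells in these 2 differences was not tested. The homeobox genes Hoxa2 and Meis1 fell between day 9 and ESC, from 5.27 to 0.764 and from 36.6 to 6.58 CPM.

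**Figure D5:**
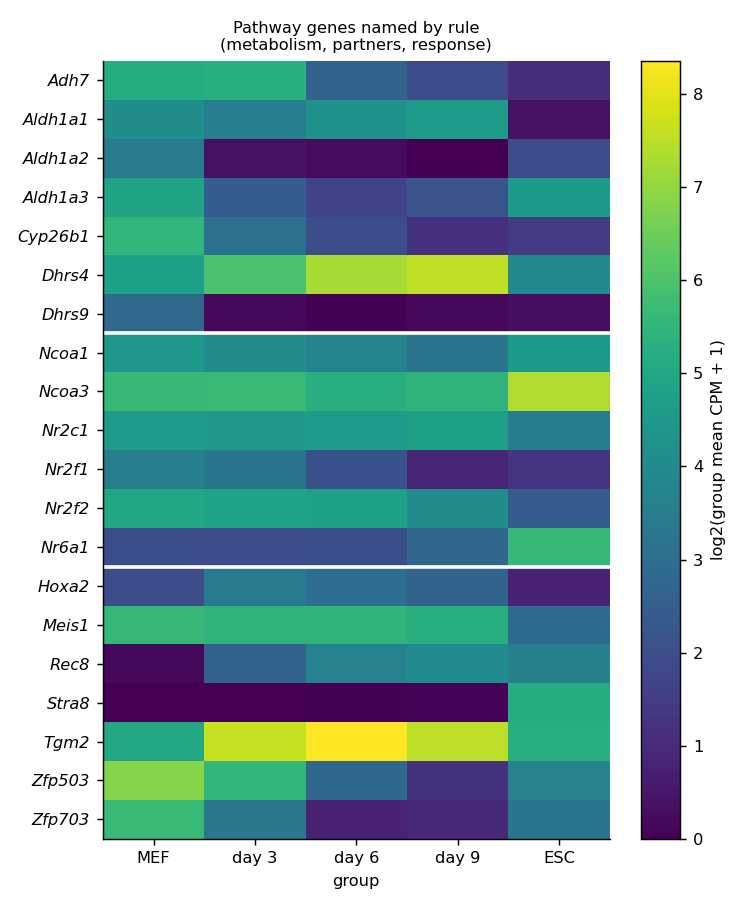
Group mean level, as log2(CPM + 1), of the pathway genes named in the text in the 5 groups, with white lines between the metabolism, partner and response lists. Tgm2 and Dhrs4 are brightest in the induced groups, Stra8 is bright in ESC alone, and Aldh1a2, Cyp26b1, Zfp503 and Zfp703 darken from MEF to day 9.

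The genes whose course over the 10 libraries came nearest to each of the 9 were named by the smallest root mean square distance of centred log2 CPM, over protein-coding genes. Rxra lay nearest to Grina (0.065) and Tmcc2 (0.092). Rara lay nearest to Pla2g15 (0.131) and Igsf3 (0.133), Crabp2 to Fam124a (0.135) and Dtx4 (0.209), and Dhrs3 to Swap70 (0.200) and Gstt3 (0.220). Cyp26a1 lay nearest to Pax5 (0.304) and Samd12 (0.313), Rarb to Cgnl1 (0.323) and Sobp (0.327), Stra6 to Oas1a (0.327) and Ctla2b (0.364), and Crabp1 to Mrgprf (0.427) and Dlk1 (0.465). The distance was not scaled to the span of a gene. Group means of log2 CPM spanned 5.34 for Crabp1 and 1.62 for Rxra, so distances of different genes cannot be ranked against each other. Rarg was left out because its group means spanned less than 1 on the log2 scale (0.80). Dtx4 shows that the closeness to Crabp2 is one of course and not of level. Dtx4 averaged 17.7 CPM in MEF, 3.38 at day 3, 7.35 at day 6 and 18.8 at day 9, with 5.77 in ESC. Crabp2 averaged 45.1, 12.7, 25.0 and 65.6 CPM in the same groups, with 17.6 in ESC.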

How the data were processed

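RNA of 10 libraries was sequenced as stranded poly(A) libraries, with all libraries under 1 batch label. For 109617 transcripts per table the authors deposited estimated counts and TPM, per the file headers. Salmon 0.8.2 and mm10 come from the submitters' processing notes; index, annotation release and options are not given in the sources used here. Effective lengths were equal in all 10 tables, which then carry no fragment length of their own. The authors' estimated counts were summed per gene (45706 genes, 98.8% found in GENCODE M21) and rounded. The deposited TPM values were summed per gene and used only to compare genes.

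Counts were filtered with filterByExpr (minimum count 10, minimum total 15), scaled with TMM and tested with edgeR 4.0.16 in R 4.3.3 (glmQLFit and glmQLFTest), with the 5 groups in 1 fit. The thresholds were 0.05 for the p-value after Benjamini-Hochberg adjustment and 1 for the absolute log2 fold change. SE is that of the log2 fold change. The common biological coefficient of variation was 3.75%. Alternatives were DESeq2 1.42.0, no filter, library-size scaling, only the 2 groups compared, a length offset, a replicate block, and each library left out in turn; TPM over protein-coding transcripts only was added after seeing the data. The fit was tested on simulated data.

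Libraries of a group differed beyond sampling noise (chi-square per degree of freedom 2.78 to 5.05). Equal replicate numbers did not pair libraries (mean correlation of deviations 1e-04, from -0.02 to 0.022). Mitochondrially encoded reads made up 2.02% to 5.32% of the libraries and were highest at day 9. Besides the 9 genes, the text names from each pathway list and comparison the 2 largest rises and 2 largest falls called at 5 CPM or more without overlap. A gene that this rule names is not reported here. The text also names the 2 nearest protein-coding genes by course. The genes and lists were chosen with earlier results of these data known. Of the marker lists, ESC against day 9 had 9 of 10 fibroblast and 8 of 8 pluripotency markers higher. Lower were 7 of 8 epithelial and 2 of 5 tested stratified epithelial markers, and 5 of 6 tested primitive endoderm markers were higher. In the same comparison, 2 of 5 tested trophoblast markers were higher and 1 lower, and 3 of 6 neural markers were higher and 2 lower.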

Additional observations from a re-analysis of the deposited data

How the results depend on the processing

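Counts of the 9 genes called kept within 1.5 times of those reported under most settings, and no called fold change of these genes changed sign. The order of MEF and ESC in the summed TPM of the RARs did turn over protein-coding transcripts only, as given above. Between day 3 and day 6, DESeq2 called 0 lower where edgeR called 1 (Rarb), and fitting only these 2 groups called 0 higher against 2, because Cyp26a1 was filtered out and Crabp1 reached 0.99. Between day 6 and day 9, DESeq2 called 1 higher against 2, and in ESC against MEF DESeq2 and the length offset each called 1 higher against 2. Leaving out a library gave 0 to 3 higher and 0 to 1 lower between day 3 and day 6, 1 to 2 higher between day 6 and day 9, and 1 to 2 higher in ESC against MEF. With the replicate block, all 54 fold changes of the 9 genes kept their call, and 5748 genes in all were called at day 3 against MEF in place of 5873. Library-size scaling moved the median over all tested genes (log2) from 0.08 to 0.29 at day 3 against MEF, from 0.10 to 0.44 in ESC against MEF and from 0.19 to 0.48 at day 9 against MEF. The order of group means changed in TPM for Rara, Rarg and Dhrs3, and with library-size scaling for Rarg and Rxra. Depth limits Rarb, Stra6 and Cyp26a1, which had 0 to 76 reads per library. Reads of 50 nt limit the transcript shares.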
